A study of Mus musculus with 36 samples.

Results

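The nuclear genes for subunits of respiratory complexes II, III, IV and V were followed through calorie restriction and time-restricted feeding in 2 mouse tissues. Members were every gene of the deposited gene tables whose symbol was Sdha, Sdhb, Sdhc, Sdhd or Cyc1, or began with Uqcr, Cox4 to Cox8 or Atp5, leaving out names marked as pseudogenes. This gave 46 genes of the 16060 listed in any table: 4 of complex II, 9 of complex III, 16 of complex IV and 17 of complex V. All 46 were measured in inguinal white adipose tissue (iWAT), the fat pad under the skin of the groin, and 42 in liver, where Cox4i2, Cox6a2, Cox6b2 and Cox8b were not in the tables. Cox7b2 and Cox8c were not analysed here.

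The mice were C57BL/6J and had been kept for 16 weeks on 1 of 3 diets: a calorie-restricted diet (CR), time-restricted feeding without a cut in calories (TR), or food ad libitum (AL). Every diet was represented by 6 bulk RNA-seq libraries from iWAT and 6 from liver, 36 in all, and the labels name separate animals within a group. The series asked whether fasting by itself gives the transcriptional response of a CR diet. The sources used here give neither sex and age nor the hour of sampling.

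Complex II (succinate dehydrogenase) feeds electrons from succinate into coenzyme Q, complex III passes them on to cytochrome c, and complex IV (cytochrome c oxidase) hands them to oxygen. Complexes III and IV pump protons across the inner mitochondrial membrane, and complex V (ATP synthase) makes ATP from their return. Complex IV exchanges several of its nuclear subunits between tissues: Cox7a1 and Cox8b are the forms of heart, skeletal muscle and brown or beige fat, and Cox7a2 and Cox8a are their partners in most other tissues.

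Stretches before annotated start sites were searched for 4 words associated with factors known to drive respiratory genes, since members that move together may share such words. The window was the 250 bases before each start site in RefSeq promoters of build GRCm38.p6, and 35 of the 46 members had an entry. A gene with several start sites held a word where any of their windows did. On either strand, GCGCA followed by any base and GCGC (NRF1) was present in 7 of these members (20.0%), against 8.24% of the 11892 measured genes with an entry and 4.23% of all 27025 genes with one. CCGGAAGT (GABP) was in 3 members (8.57%, against 5.91% of measured genes and 3.23% of all genes), TCAAGGTCA (ERR) in 1 member (2.86%, against 0.311% and 0.422%) and AAGATGGC (YY1) in 1 member (2.86%, against 2.23% and 1.83%). Any of the 4 words was found in 11 of 35 members (31.4%), against 15.5% of measured genes and 9.15% of all genes. None of the words holds another of them. These are matches of letters and not binding sites, and a start site can lie inside the gene. For Atp5j the window printed below lies within the gene as annotated in GENCODE M21, chr16:84827866-84835625. Where a gene had several start sites, a window with a match is printed. The lines show, for each word, the member holding it that had the smallest adjusted p under CR in iWAT, with the match in capitals, and then the isoform pair Cox8b and Cox8a, which held none of the words. All 6 lie on the minus strand: Sdhd at chr9:50603850-50604099, Uqcrh at chr4:116075071-116075320, Atp5g3 at chr2:73911327-73911576, Atp5j at chr16:84834977-84835226, Cox8b at chr7:140900447-140900696 and Cox8a at chr19:7217617-7217866.
Sdhd (NRF1 word): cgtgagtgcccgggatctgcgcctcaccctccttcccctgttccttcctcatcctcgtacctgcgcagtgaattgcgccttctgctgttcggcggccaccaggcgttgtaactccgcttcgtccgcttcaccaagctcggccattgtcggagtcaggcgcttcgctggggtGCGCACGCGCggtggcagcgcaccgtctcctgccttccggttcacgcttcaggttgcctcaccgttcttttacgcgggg
Uqcrh (GABP word): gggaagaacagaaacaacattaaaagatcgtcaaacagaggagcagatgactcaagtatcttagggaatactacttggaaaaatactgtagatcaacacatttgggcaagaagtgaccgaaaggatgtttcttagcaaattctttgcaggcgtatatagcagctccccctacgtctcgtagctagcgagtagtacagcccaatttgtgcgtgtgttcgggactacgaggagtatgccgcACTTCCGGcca
Atp5g3 (ERR word): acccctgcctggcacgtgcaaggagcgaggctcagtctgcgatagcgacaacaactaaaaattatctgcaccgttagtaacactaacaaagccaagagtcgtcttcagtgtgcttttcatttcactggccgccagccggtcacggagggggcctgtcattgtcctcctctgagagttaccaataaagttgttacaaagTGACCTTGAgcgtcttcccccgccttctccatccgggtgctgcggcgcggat
Atp5j (YY1 word): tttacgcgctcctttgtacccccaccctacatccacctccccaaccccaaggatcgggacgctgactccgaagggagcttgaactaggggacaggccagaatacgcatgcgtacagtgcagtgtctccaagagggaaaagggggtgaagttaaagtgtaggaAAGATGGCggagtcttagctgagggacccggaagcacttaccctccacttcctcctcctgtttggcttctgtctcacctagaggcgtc
Cox8b (none): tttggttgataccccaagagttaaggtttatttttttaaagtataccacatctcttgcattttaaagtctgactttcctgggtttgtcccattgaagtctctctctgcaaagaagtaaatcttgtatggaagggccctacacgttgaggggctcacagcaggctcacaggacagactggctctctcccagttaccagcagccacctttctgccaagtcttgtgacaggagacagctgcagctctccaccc
Cox8a (none): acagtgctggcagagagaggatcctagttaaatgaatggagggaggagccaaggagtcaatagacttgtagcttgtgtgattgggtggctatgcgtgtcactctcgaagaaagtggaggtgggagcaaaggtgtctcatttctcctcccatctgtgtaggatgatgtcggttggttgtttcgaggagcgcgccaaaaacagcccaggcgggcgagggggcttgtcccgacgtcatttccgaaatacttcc

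Each deposited table holds 1 comparison of 2 groups, as a fitted log2 fold change, a log2 mean CPM (counts scaled to the library size) and a false discovery rate (FDR) over all genes, and it holds no values per library. A gene was called where its FDR was under 0.05. An approximate standard error (SE) was taken from the fold change and its likelihood-ratio statistic, and group levels were worked back from the mean CPM and the fold change. The AL level worked back from the CR and from the TR table differed among members by at most 0.0268 log2 in iWAT and 0.0145 in liver. The tissue labels were borne out by marker genes, with albumin (Alb) at 107412, 115974 and 74798 CPM in CR, TR and AL livers, and the adipocyte hormone Adipoq at 2602, 3042 and 2880.4 CPM in CR, TR and AL iWAT. Markers of other cell types were present in iWAT at unequal levels. The 12 skeletal muscle markers summed to 7700.4, 475 and 3381 CPM in CR, TR and AL iWAT, and none of them was in the liver tables. The 9 hepatocyte markers summed to 2132, 10028 and 2429 CPM in CR, TR and AL iWAT, against 154298, 161076 and 115361 CPM in CR, TR and AL livers. These sums hide lower single markers in CR iWAT. In the authors' deposited iWAT tables, 7 of 9 were called lower in CR than in AL (median -3.91 log2). Against TR, 8 of 9 were called lower in CR (median -6.02), and Cyp2e1 was not (-0.84, FDR 0.538). In TR against AL, 1 was called higher and none lower (median 2.19). Alb was at 175, 5113 and 678 CPM in CR, TR and AL iWAT. Fibroblast and progenitor markers summed to 1549, 1413 and 3109 CPM, and macrophage markers to 1009, 949 and 1335 CPM, in CR, TR and AL iWAT. Endothelial markers summed to 732, 656 and 862 CPM in the same groups. Lymphocyte markers went the other way, at 506, 421 and 244 CPM, with none called on either diet. Erythroid markers summed to 1709, 2448 and 1596 CPM in CR, TR and AL iWAT. The part of these cells in the results was not tested.

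In iWAT, subunits of all 4 complexes were higher on both diets than with food ad libitum. Under CR, 31 of 46 members rose and none fell in the authors' deposited table, where 3.52% of all genes were called higher and 3.78% lower. Under TR, 37 rose and 1, Cox6a2, fell, where 4.76% of all genes were called higher and 5.24% lower in the authors' deposited table. The median log2 fold change of the members was 0.98 under CR and 1.17 under TR, against 0.024 and -0.038 over all genes, and 44 of 46 members lay above 0 on either diet. Summed over the 46 members, the level was 16198 CPM in CR, 18466 CPM in TR and 8101 CPM in AL iWAT. In bulk tissue, a change in the share of a cell type and a change in RNA per cell cannot be told apart. CR and TR were both set against the same AL libraries, so their values stand side by side and are not independent of each other.

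**Figure D1:**
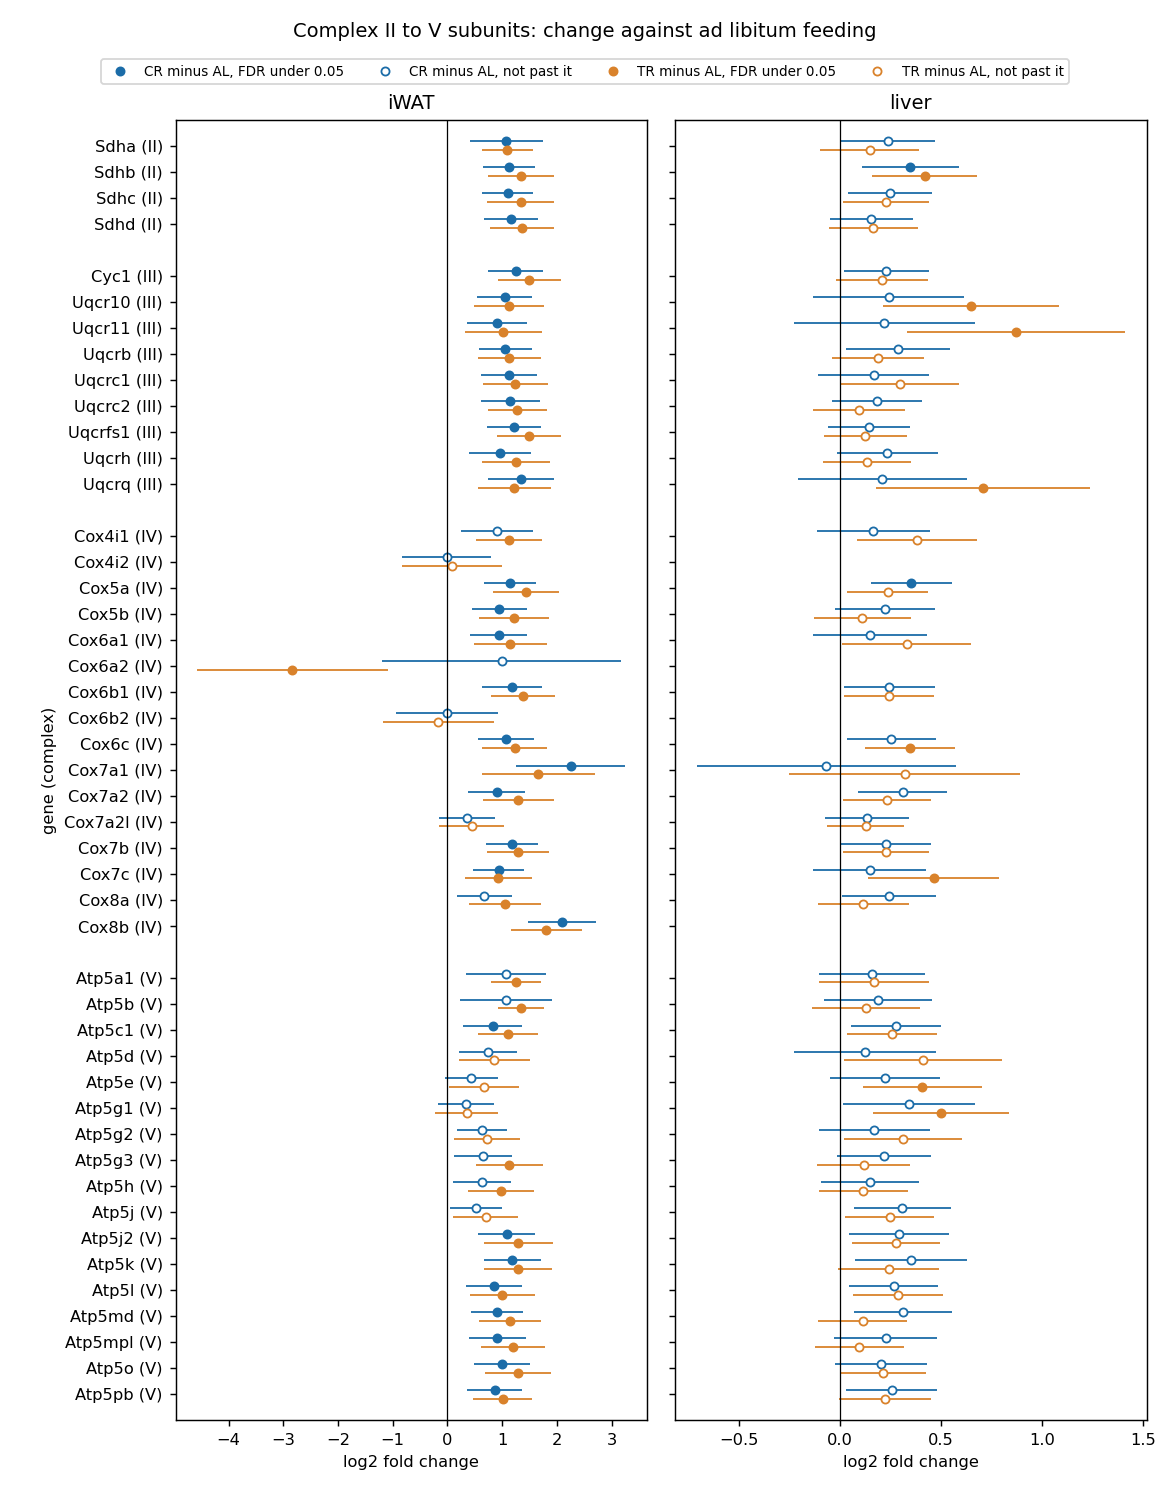
Log2 fold change of each member against AL feeding in iWAT (left) and liver (right; the horizontal axes differ), with CR in blue above TR in orange for each gene. Bars are approximate 95% intervals, filled points passed an FDR of 0.05 and open points did not; in iWAT nearly all points lie right of 0, with Cox6a2 under TR at -2.83 the exception that was called.

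All 4 genes of complex II rose in iWAT on both diets. Sdha, the flavoprotein that oxidises succinate, had a log2 fold change of 1.08 ± 0.34 under CR (approximate SE; FDR 0.0284) and 1.09 ± 0.24 under TR (FDR 0.000251) in the authors' deposited tables. Sdhb, the iron-sulfur subunit that carries the electrons onward, stood at 1.12 ± 0.24 (FDR 0.000298) under CR and 1.35 ± 0.31 (FDR 0.000486) under TR in the authors' deposited tables. The membrane anchors, which hold the complex in the inner membrane, reached 1.10 for Sdhc and 1.16 for Sdhd under CR and 1.34 and 1.36 under TR in the authors' deposited tables. The fold changes of the 4 subunits lay between 1.08 and 1.16 under CR in the authors' deposited table, closer together than the smallest of their approximate SEs (0.24). Levels of Sdha were 1161, 1160.0 and 547 CPM in CR, TR and AL iWAT.

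Complex III rose as a whole: 9 of its 9 genes were called higher on each diet in the authors' deposited tables. The subunits that carry the redox groups were among the highest under TR. Cyc1, the cytochrome c1 subunit, had log2 fold changes of 1.25 ± 0.26 under CR (FDR 0.000102) and 1.49 ± 0.29 under TR (FDR 2.94e-05) in the authors' deposited tables. Uqcrfs1, the Rieske iron-sulfur protein, had 1.22 ± 0.25 under CR (FDR 8.48e-05) and 1.49 ± 0.30 under TR (FDR 4.63e-05) in the authors' deposited tables. Uqcrc1 and Uqcrc2 are the core proteins on the matrix side. Under CR they stood at 1.13 and 1.15, and under TR at 1.24 and 1.28, in the authors' deposited tables. Of the 5 small subunits, Uqcrq had the highest value under CR, 1.34 ± 0.31 (FDR 0.000769), and Uqcr11 the lowest on both diets, 0.91 ± 0.28 under CR (FDR 0.0214) and 1.02 ± 0.36 under TR (FDR 0.0484), in the authors' deposited tables. Uqcrh, the hinge protein near cytochrome c1, lay between them under CR, at 0.97, with 1.25 under TR, in the authors' deposited tables.

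Of the 10 ubiquitous subunits of complex IV, 8 rose under CR and 10 under TR in the authors' deposited tables, with medians of 0.94 and 1.22. Cox5a, which sits on the matrix side, had 1.15 ± 0.24 under CR (FDR 0.000151) and 1.43 ± 0.31 under TR (FDR 0.000174), the highest TR value of the ubiquitous set, in the authors' deposited tables. Cox7b, a small subunit in the membrane, and Cox6b1, a subunit facing the intermembrane space, stood at 1.18 and 1.17 under CR and 1.29 and 1.38 under TR in the authors' deposited tables. Cox5b, the zinc-binding subunit, stood at 0.95 under CR and 1.21 under TR, Cox6c at 1.07 and 1.23, and Cox7c at 0.93 and 0.93, all called on both diets in the authors' deposited tables. The pair that did not pass under CR was Cox4i1, an early-assembling regulatory subunit, at 0.90 ± 0.34 (FDR 0.0780), and Cox8a at 0.67 ± 0.26 (FDR 0.0870), in the authors' deposited table. Cox7a2l, a relative of Cox7a2 associated with supercomplexes of complexes III and IV, had low values in iWAT on both diets. It stood at 0.36 ± 0.26 under CR (FDR 0.467) and 0.44 ± 0.30 under TR (FDR 0.389) in the authors' deposited tables. A p above the threshold does not show that Cox7a2l was unchanged, since its approximate 95% interval ran from -0.15 to 0.87 under CR.

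The isoforms of complex IV that belong to particular tissues were Cox7a1, Cox8b, Cox6a2, Cox4i2 and Cox6b2, and their log2 fold changes ran from -0.01 to 2.25 under CR and from -2.83 to 1.81 under TR in the authors' deposited tables. Cox8b (chr7:140898945-140900446, minus strand, GRCm38), the heart, muscle and brown fat form of subunit VIII, had a level of 235 CPM per kilobase of transcript in CR, 189 in TR and 54.5 in AL iWAT. In the authors' deposited tables this was a log2 fold change of 2.09 ± 0.32 under CR (FDR 1.97e-08) and 1.81 ± 0.33 under TR (FDR 6.49e-06). Its partner Cox8a (chr19:7215153-7217616, minus strand, GRCm38) had levels of 423, 541 and 264 CPM per kilobase in CR, TR and AL iWAT, a log2 fold change of 0.67 under CR and 1.04 ± 0.34 under TR (FDR 0.0256) in the authors' deposited tables. Counted per length, Cox8b made up 35.7% of the pair in CR, 25.9% in TR and 17.1% in AL iWAT. The difference between the fold changes of the pair was 1.42 log2 under CR (approximate 95% interval 0.62 to 2.23; approximate z test, adjusted p 0.00458 over the 18 pair comparisons). Under TR it was 0.76 log2 (interval -0.17 to 1.69, adjusted p 0.176).

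Cox7a1 (chr7:30184144-30186078, plus strand, GRCm38), the muscle and brown fat form of subunit VIIa, was the member with the highest fold change under CR. Its level was 73.7, 48.6 and 15.4 CPM per kilobase in CR, TR and AL iWAT. The log2 fold change in the authors' deposited tables was 2.25 ± 0.51 under CR (FDR 0.000613) and 1.66 ± 0.52 under TR (FDR 0.0218). Cox7a2, its partner, was also called higher on both diets in the authors' deposited tables, at 0.90 ± 0.27 under CR (FDR 0.0160) and 1.30 ± 0.33 under TR (FDR 0.00247). Cox7a1 made up 16.1%, 8.84% and 6.98% of the pair per length in CR, TR and AL iWAT. The difference within the pair did not pass on either diet: 1.36 log2 under CR (interval 0.23 to 2.48, adjusted p 0.0618) and 0.37 under TR (interval -0.85 to 1.58, adjusted p 0.667). In liver Cox7a1 was near the floor of the tables, at 2.16, 2.81 and 2.26 CPM per kilobase in CR, TR and AL, and was not called.

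Cox6a2, the heart and skeletal muscle form of subunit VIa, was the single member called lower. Its level was 9.85 CPM per kilobase in CR, 0.709 in TR and 5.01 in AL iWAT. Without division by length it was at 6.70, 0.482 and 3.40 CPM, so the TR value is near the floor. In the authors' deposited tables the log2 fold change was 0.99 ± 1.12 under CR (FDR 0.667) and -2.83 ± 0.89 under TR (FDR 0.0210). The highest transcript of Cox6a2 was not called under TR (-2.83 ± 0.98, transcript FDR 0.0864). The ubiquitous partner Cox6a1 went the other way under TR, at 1.15 ± 0.34 (FDR 0.0134) in the authors' deposited table. The difference within the pair was -3.98 log2 under TR (interval -5.85 to -2.11, adjusted p 0.000530) and 0.06 under CR (interval -2.19 to 2.30, adjusted p 0.961). Skeletal muscle markers were low in the same group. Under TR 4 of 12 were called lower in the authors' deposited table, where 5.24% of all genes were. They were the myosin heavy chains Myh1 at -6.06 and Myh2 at -5.15, myoglobin (Mb) at -4.99 and skeletal actin (Acta1) at -2.84. All 12 had an unadjusted p under 0.05, as did 3526 of all 15356 genes, and the median of the 12 was -2.84. Under CR none of the 12 was called in the authors' deposited table, where 0 also had an unadjusted p under 0.05, and their median was 1.22. The part of muscle RNA in the values of Cox6a2, Cox7a1 and Cox8b was not tested.

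The forms of lung and testis kept low levels. Cox4i2, the lung isoform of subunit IV, stood at 5.46, 5.71 and 5.46 CPM per kilobase in CR, TR and AL iWAT, and Cox6b2, the testis isoform of subunit VIb, at 3.04, 2.68 and 3.03. Their partners Cox4i1 and Cox6b1 were at 579 and 359 CPM per kilobase in AL iWAT. Cox6b2 differed from Cox6b1 by -1.54 log2 under TR (interval -2.72 to -0.37, adjusted p 0.0444) and by -1.18 under CR (interval -2.26 to -0.09, adjusted p 0.0854). Cox6b2 was near the floor, at 1.68, 1.48 and 1.67 CPM in CR, TR and AL iWAT. The gene stood at -0.17 under TR, but its highest transcript, Cox6b2-201, at 0.39 ± 0.88, in the authors' deposited tables. Their log2 mean CPM was 0.65 and -0.52, and the level per kilobase used that transcript's length, 553 nucleotides. Cox4i2 differed from Cox4i1 by -0.92 under CR and -1.05 under TR, and neither passed (adjusted p 0.157 and 0.133). The pair tests treat the genes of a pair as uncorrelated, which these tables cannot check.

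**Figure D2:**
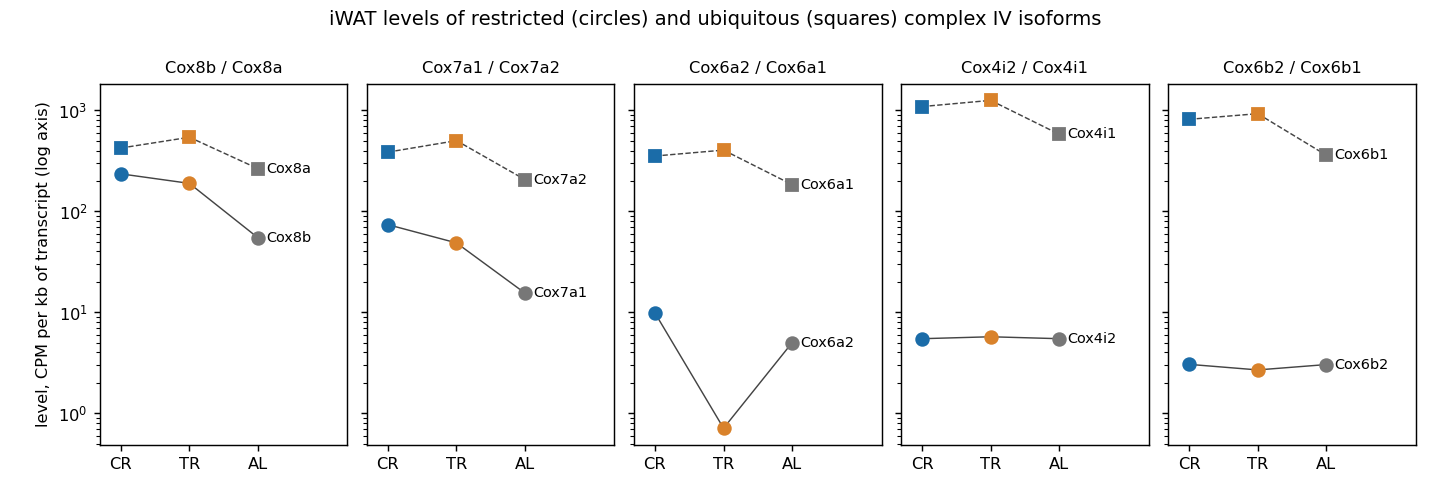
Level per kilobase of transcript (log axis) of each restricted isoform (circles) and its ubiquitous partner (squares) in CR, TR and AL iWAT, worked back from the authors' deposited tables, with no error per group. The points of every ubiquitous gene, Cox8b and Cox7a1 lie higher in CR and TR than in AL; Cox6a2 lies lowest in TR at 0.709, and those of Cox4i2 lie between 5.46 and 5.71.

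Brown and beige fat genes were higher in iWAT on both diets beside these isoforms. Of 9 listed markers, which include Cox7a1 and Cox8b themselves, 7 were called higher under CR and 7 under TR in the authors' deposited tables. Ucp1, the uncoupling protein of thermogenic fat, was at 26.3, 11.0 and 1.5 CPM in CR, TR and AL iWAT, and the lipid droplet protein Cidea at 353, 339 and 20.7 CPM. Whether the isoforms moved with the number of such cells was not tested.

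Complex V had the smallest share of called genes of the 4 complexes under CR: 8 of 17 rose under CR and 12 of 17 under TR in the authors' deposited tables, with medians of 0.86 and 1.11. This share was set beside those of the other complexes without a test, since subunits are not replicates. The catalytic F1 head holds Atp5b and Atp5a1, the beta and alpha subunits. Atp5b, the highest of complex V per length, was at 1699, 2041 and 806 CPM per kilobase in CR, TR and AL iWAT. In the authors' deposited tables its log2 fold change was 1.35 ± 0.21 under TR (FDR 5.15e-08), the smallest FDR of any member in that table, and 1.07 ± 0.43 under CR (FDR 0.11). Atp5a1 had 1.25 ± 0.23 under TR (FDR 7.99e-06) and 1.07 ± 0.38 under CR (FDR 0.0564) in the authors' deposited tables. For both genes the approximate SE was larger under CR, and the CR minus TR comparison was not called (-0.36 ± 0.32 for Atp5b and -0.25 ± 0.30 for Atp5a1 in the authors' deposited table). The gamma subunit Atp5c1 rose on both diets, by 0.82 under CR and 1.11 under TR in the authors' deposited tables, while Atp5d and Atp5e, the delta and epsilon subunits, passed on neither. Atp5d was at 0.75 ± 0.27 under CR (FDR 0.0650) and 0.86 ± 0.33 under TR (FDR 0.0733), and Atp5e at 0.44 ± 0.25 (FDR 0.316) and 0.67 ± 0.32 (FDR 0.190), in the authors' deposited tables.

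The 5 membrane subunits Atp5j2, Atp5k, Atp5l, Atp5md and Atp5mpl, which sit around the proton channel, all rose on both diets in the authors' deposited tables. Atp5k, subunit e of the dimer interface, had the highest value of complex V under CR, 1.19 ± 0.26 (FDR 0.000386), with 1.29 ± 0.32 under TR (FDR 0.00139), in the authors' deposited tables. Of the 4 genes of the peripheral stalk that holds the head still, Atp5o and Atp5pb rose on both diets, Atp5h rose under TR (0.98, FDR 0.0202), and Atp5j passed on neither, in the authors' deposited tables. Their values were 0.99 for Atp5o, 0.86 for Atp5pb, 0.64 for Atp5h and 0.52 for Atp5j under CR in the authors' deposited table. The genes Atp5g1, Atp5g2 and Atp5g3 encode the same mature c subunit of the rotor ring. Only Atp5g3 under TR passed, at 1.13 ± 0.31 (FDR 0.00636), and Atp5g1 had the lowest value of complex V on both diets, 0.34 ± 0.26 under CR (FDR 0.496) and 0.35 ± 0.29 under TR (FDR 0.503), in the authors' deposited tables. Atp5g3 made up 64.0%, 70.2% and 63.0% of the summed level per length of the 3 genes in CR, TR and AL iWAT, and Atp5g1 made up 5.12%, 4.03% and 6.22%. In liver Atp5g1 held more of the ring's transcripts per length, 21.6%, 24.0% and 20.1% in CR, TR and AL. These shares depend on the length used for Atp5g1, a mean of 1864 nucleotides in iWAT and 1203 in liver. Without division by length, Atp5g1 was at 58.0 CPM in AL iWAT and 138 CPM in AL liver.

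All 31 members called higher under CR in iWAT were also called under TR, and 6 more, Atp5a1, Atp5b, Atp5g3, Atp5h, Cox4i1 and Cox8a, were called under TR alone in the authors' deposited tables. The direct comparison of CR with TR gives the test of that difference. None of the 46 members was called in iWAT (FDR of the authors' edgeR model, deposited table), 1 had an unadjusted p under 0.05 (3.62% of all genes did), and 0.0612% of all genes were called higher and 0.857% lower. The members lay slightly lower in CR than in TR, with a median of -0.24 against 0.013 over all genes and 41 of 46 below 0. The medians of other genes with transcripts under 2000 nucleotides also lay below 0. Those under 600, from 600 up to 1000 and from 1000 up to 2000 nucleotides had medians of -0.06, -0.20 and -0.12, against -0.21, -0.26 and -0.28 for members. At 2000 nucleotides or more, other genes had a median of 0.06, against -0.25 for the 3 members. Less the median of the length class, the members' median was -0.11 and 35 of 46 lay below 0. The member with the unadjusted p was Cox6a2, at 3.84 ± 1.26 (p 0.00235, FDR 0.171) in the authors' deposited table. Within its pair, the CR minus TR difference of Cox6a2 from Cox6a1 was 4.12 log2 (interval 1.59 to 6.66, adjusted p 0.00870), beside muscle markers with a median of 4.06. Cox7a1 stood at 0.53 ± 0.31 and Cox8b at 0.23 ± 0.23 in the authors' deposited table, and neither was called. Approximate 95% intervals of the other members reached as low as -1.18 (Atp5g3), so the tables leave room for differences of that size between the diets.

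Few of these genes were called in liver. Under CR, 2 of 42 members rose and none fell in the authors' deposited table, where 5.79% of all genes were called higher and 5.37% lower. They were Sdhb at 0.35 ± 0.12 (FDR 0.0444) and Cox5a at 0.35 ± 0.10 (FDR 0.00942) in the authors' deposited table. Under TR, 8 of 42 rose and none fell in the authors' deposited table, where 9.35% of all genes were called higher and 9.54% lower. The share of members called under CR, 2 of 42, was near that of all genes. The members' median log2 fold change was 0.23 under CR and 0.23 under TR, against -0.0038 and -0.00052 over all genes, and 41 and 42 of the 42 lay above 0.

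The TR calls in liver were led by complex III. Uqcr11, Uqcrq and Uqcr10, small subunits of complex III, had the 3 highest values. Uqcr11 was at 42.2, 67.1 and 36.5 CPM in CR, TR and AL livers, a log2 fold change of 0.87 ± 0.28 under TR (FDR 0.0130) and 0.22 ± 0.23 under CR (FDR 0.630) in the authors' deposited tables. Uqcrq had 0.71 ± 0.27 (FDR 0.0483) and Uqcr10 0.65 ± 0.22 (FDR 0.0249) under TR in the authors' deposited table. The other calls under TR were Atp5g1 at 0.50, Cox7c at 0.46, Sdhb at 0.42, Atp5e at 0.41 and Cox6c at 0.34 in the authors' deposited table. Lowest under TR were Uqcrc2 at 0.09 and Atp5mpl at 0.09, and lowest under CR were Cox7a1 at -0.07 and Atp5d at 0.12, all uncalled, in the authors' deposited tables. Between CR and TR livers no member passed in the authors' deposited CR minus TR table (edgeR FDR), 4 had an unadjusted p under 0.05 (10% of all genes did), and 0.159% of all genes were called higher and 0.31% lower. Uqcr11 was lowest there, at -0.65 ± 0.21 (FDR 0.126), with Uqcrq at -0.50, Uqcr10 at -0.41 and Cox7c at -0.32, in the authors' deposited table.

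Transcript length moved with the fold changes in these tables and has to be read beside the liver values. Members are short: the median transcript length was 737 nucleotides for members and 2816 for all genes in the CR liver table. Other genes with transcripts under 600 nucleotides had a median log2 fold change of 0.22 under CR and 0.25 under TR in liver, close to the 0.24 and 0.28 of members of that length. From 600 up to 1000 nucleotides, members had liver medians of 0.22 under CR and 0.24 under TR, against 0.15 and 0.15 for other genes. From 1000 up to 2000 the members had 0.19 and 0.21, against 0.04 and 0.04. The 3 members of 2000 or more had 0.24 and 0.17, against -0.03 and -0.03. In iWAT the other genes under 600 nucleotides stood at 0.23 under CR and 0.29 under TR, against 0.95 and 1.15 for members of that length. After subtracting the median of the length class, 0 members were called under CR and 2 under TR in liver, and 21 under CR and 23 under TR in iWAT. The same subtraction moved the liver medians to 0.08 under CR and 0.09 under TR, and the iWAT medians to 0.75 and 0.90. It left 35 of 42 members above 0 under CR and 32 of 42 under TR in liver, and 44 and 43 of 46 in iWAT. This alternative was added after the data were seen, and the part of length in the results was not tested.

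**Figure D3:**
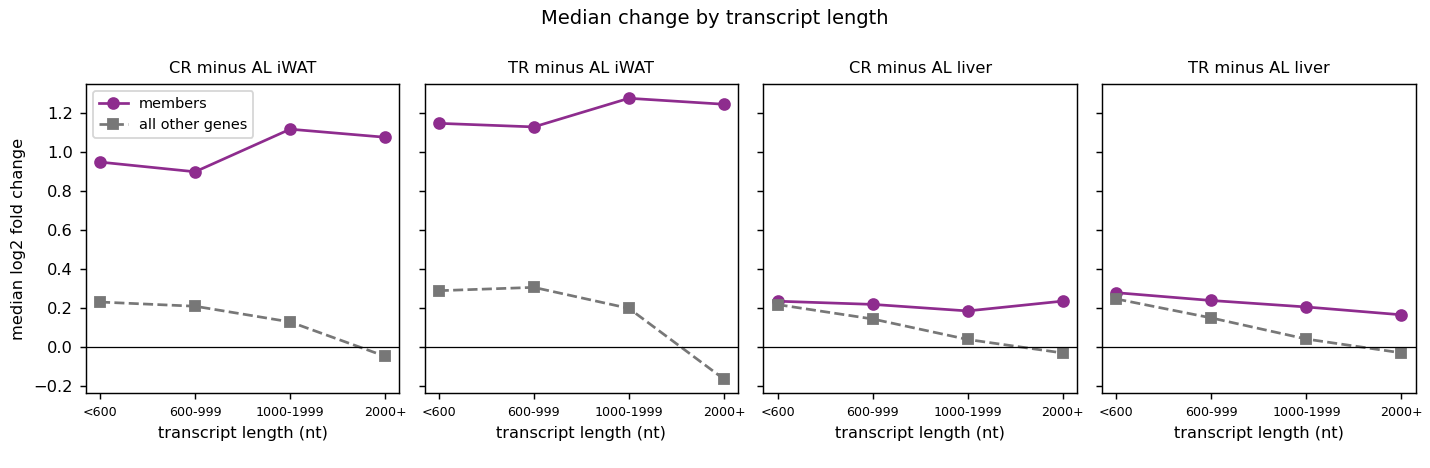
Median log2 fold change by transcript length class (nucleotides) for members (circles) and all other genes (squares), for CR and TR against AL in iWAT and in liver. In liver the 2 lines come close for the shortest transcripts (0.24 for members and 0.22 for other genes under CR). They lie further apart for longer ones, and in both tissues members stay above other genes in every class.

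The size of the diet effect in iWAT and in liver was compared gene by gene. For each gene the liver log2 fold change was subtracted from the iWAT one, with an approximate z test and Benjamini-Hochberg adjustment over all genes in both tissues. Under CR, 11 of 42 members had a larger effect in iWAT and none a smaller one, where 3.09% of 12012 genes passed in that direction and 3.65% in the other. Under TR, 21 of 42 did and none was smaller, where 4.16% of 12201 genes passed in that direction and 3.65% in the other. The median difference was 0.78 under CR and 0.95 under TR, against 0.031 and -0.0087 over all genes. All 42 members lay above 0 under CR and 41 under TR. By complex, 2 of 4, 5 of 9, 4 of 12 and 0 of 17 genes of complexes II, III, IV and V passed under CR, and 3, 5, 5 and 8 under TR. Both tissues came from the same animal in 16 of 20 mice, where number 24, which the labels use under both CR and TR, was taken as separate animals. The test treats the tissues as uncorrelated.

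Cox7a1 had the largest difference between tissues under CR, 2.32 log2 (approximate 95% interval 1.13 to 3.51, adjusted p 0.00566), followed by Uqcrq at 1.13 and Uqcrfs1 at 1.07. The liver side of the Cox7a1 value is near the floor, at 0.851, 1.10 and 0.888 CPM in CR, TR and AL livers. Under TR the order was led by Uqcrfs1 at 1.36 (interval 0.74 to 1.98, adjusted p 0.000853). Cox7a1 came next at 1.34, which did not pass (adjusted p 0.167), and then Cyc1 at 1.29 (adjusted p 0.00195). Atp5g1 had the smallest difference on both diets, 0.0024 under CR (interval -0.61 to 0.61) and -0.15 under TR (interval -0.82 to 0.52). Its log2 fold change was 0.34 in iWAT and 0.34 in liver under CR in the authors' deposited tables. Next lowest were Atp5j (0.22) and Atp5e (0.22) under CR, and Uqcr11 (0.15) and Atp5e (0.26) under TR.

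**Figure D4:**
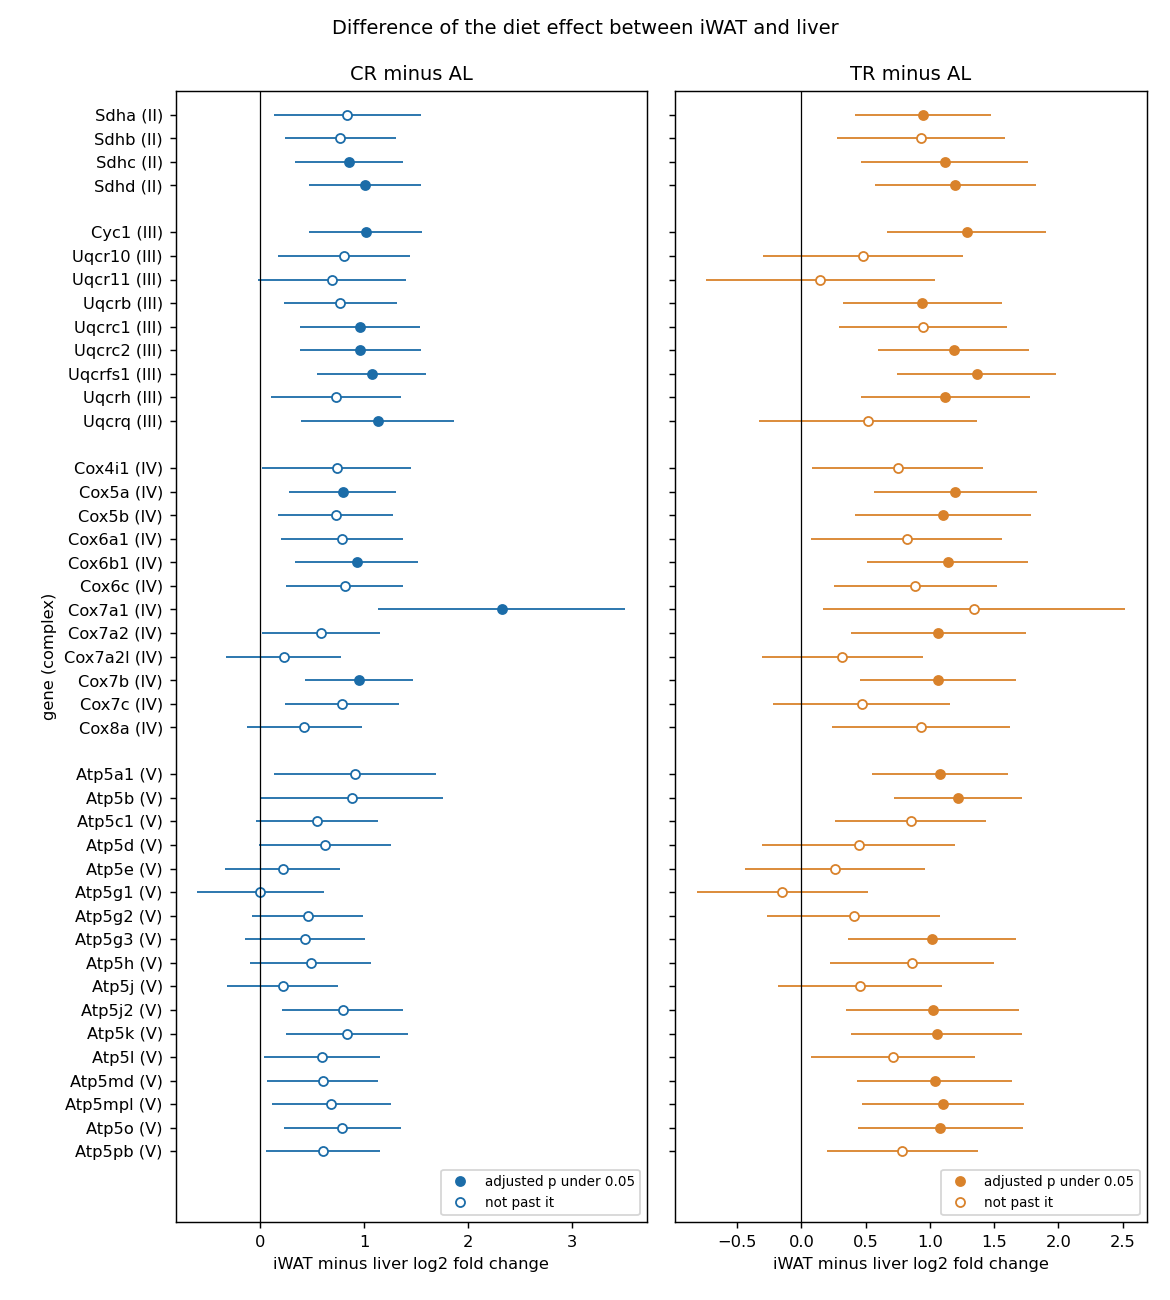
iWAT minus liver difference of the log2 fold change for the 42 members measured in both tissues, under CR (left) and TR (right), with approximate 95% intervals. Filled points passed an adjusted p of 0.05 over all genes; nearly all points lie right of 0, and Atp5g1 lies at 0.0024 and -0.15.

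Levels of the members in the tissues were compared as a description, since none of the authors' deposited comparisons sets liver against iWAT. With food ad libitum, 25 of 42 members had a higher CPM in iWAT than in liver, with a median log2 ratio of 0.200 against 0.748 over the 11916 genes in both. Cox7a1 (2.77 log2), Cox8a (1.21) and Cox7a2l (0.99) lay furthest towards iWAT, and Atp5g1 (-1.26), Sdhd (-0.60) and Uqcrq (-0.53) furthest towards liver. Per kilobase of transcript, the median level of complex V genes was 311, 355 and 173 CPM in CR, TR and AL iWAT and 178, 179.9 and 155 CPM in CR, TR and AL liver. For complex II the medians were 244, 280.0 and 110.1 CPM per kilobase in CR, TR and AL iWAT and 166, 168 and 140.2 in CR, TR and AL liver. The spread between subunits of 1 complex was wide: in AL iWAT complex III ran from 26.0 (Uqcrq) to 337 CPM per kilobase (Uqcrh) and complex V from 31.1 (Atp5g1) to 806 (Atp5b).

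**Figure D5:**
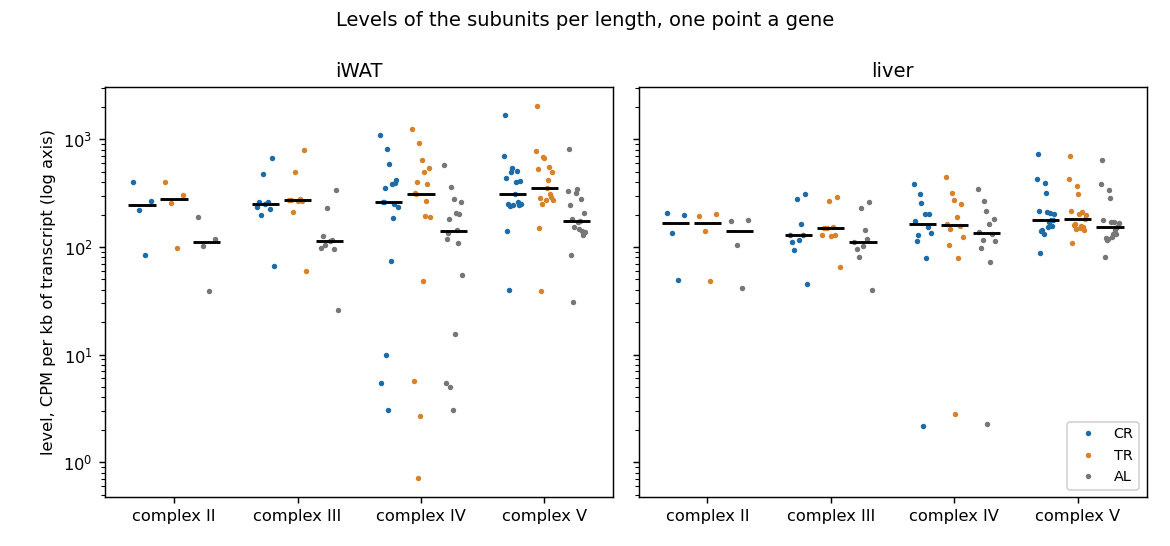
Level per kilobase of transcript (log axis) of every member by complex in CR, TR and AL iWAT (left) and liver (right), each point a gene and each black line a group's median. In iWAT the median lines of CR and TR lie above that of AL in all 4 complexes; the lowest points are the restricted isoforms of complex IV.

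The subunits of complexes III, IV and V encoded in mitochondrial DNA were also measured. Of 6, 2 were called higher under CR and 4 under TR in iWAT in the authors' deposited tables, and none in liver on either diet, where 0 also had an unadjusted p under 0.05. The medians were 1.17 under CR and 1.08 under TR in iWAT and 0.24 and 0.09 in liver. The complex IV gene mt-Co3 was at 1.33 under CR (FDR 0.0104) and 2.28 under TR (FDR 2.50e-12) in iWAT in the authors' deposited tables. The catalytic subunit mt-Co1, at 53569, 49288 and 21203 CPM in CR, TR and AL iWAT, was called under TR (1.22, FDR 1.84e-09) and not under CR (1.33, FDR 0.237) in the authors' deposited tables. Of the complex V genes, mt-Atp8 was called under CR, at 1.26 (FDR 0.0317), and mt-Atp6 on neither diet, in the authors' deposited tables.

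Among 14 genes of the electron carriers between the complexes, 4 rose under CR and 7 under TR in iWAT, and 1 and 2 in liver, with none lower, in the authors' deposited tables. Of all genes, 3.52% under CR and 4.76% under TR were called higher in iWAT, and 5.79% and 9.35% in liver. For 14 genes, the liver counts were close to those shares. Cycs, the cytochrome c that carries electrons from complex III to complex IV, was at 465, 474 and 159 CPM in CR, TR and AL iWAT. Its log2 fold change was 1.54 under CR (FDR 6.27e-06) and 1.58 under TR (FDR 3.40e-06) in iWAT, and -0.04 and -0.07 in liver, in the authors' deposited tables. Coq9, a lipid-binding protein of coenzyme Q synthesis, stood at 1.25 (FDR 1.85e-06) under CR and 1.47 (FDR 0.000130) under TR in iWAT in the authors' deposited tables. In liver the carrier gene called on both diets was Coq8a, an atypical kinase of the same pathway, at 0.66 under CR (FDR 6.36e-05) and 0.54 under TR (FDR 0.0242) in the authors' deposited tables.

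Factors that assemble the complexes were listed apart from the subunits. Of 26 measured assembly factors of complexes III and IV, 4 rose under each diet in iWAT, with medians of 0.51 under CR and 0.66 under TR, in the authors' deposited tables. Coa5, Uqcc1 and Cox10, the last of which takes part in making the heme of complex IV, were called on both. In liver, 1 of 26 was called higher under CR and 2 higher and 2 lower under TR, no larger a share than that of all genes given above for each diet. Cmc1 rose under CR (0.50), and under TR Uqcc2 (0.59) and Cox17 (0.57) rose while Cox15 (-0.32) and Coa7 (-0.29) fell in the authors' deposited tables. For complexes II and V, 2 of 9 factors rose under CR and 3 under TR in iWAT in the authors' deposited tables, Atpaf2 and Tmem242 on both diets and Sdhaf4 under TR. Ndufa4, found with complex IV, and Higd1a, a hypoxia-inducible partner of it, rose on both diets in iWAT in the authors' deposited tables: Ndufa4 at 0.97 under CR and 1.23 under TR, and Higd1a at 0.77 and 1.06.

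None of the 14 transcriptional regulators listed was called in iWAT on either diet in the authors' deposited tables (edgeR FDR), where 2 under CR and 1 under TR had an unadjusted p under 0.05. Of all genes, 3010 of 15295 under CR and 3526 of 15356 under TR had such a p in iWAT. Ppargc1a, the coactivator of mitochondrial biogenesis, was at 0.46 under CR (FDR 0.584) and 0.33 under TR (FDR 0.716) in iWAT in the authors' deposited tables. In liver none was called under CR, where 3 had an unadjusted p under 0.05, and 3 were higher and 2 lower under TR in the authors' deposited tables. Of all genes in liver, 2887 of 12636 had such a p under CR. Under TR, 9.35% of all genes in liver were called higher and 9.54% lower. Esrra, the receptor ERR alpha, rose under TR (0.82, FDR 0.0240) and was lower in CR than in TR livers (-0.70, FDR 0.0473), and Gabpa, a subunit of GABP, fell under TR (-0.38, FDR 0.00773), in the authors' deposited tables.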

How the data were processed

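RNA from iWAT and liver was sequenced in 36 libraries, 6 per diet and tissue. Per the submitters' processing notes, bcl2fastq 2.20, STAR 2.5.3a, RSEM and build GRCm38.p5 were used. The authors deposited, per the names and file headers of the tables, edgeR generalized linear model results for 6 comparisons of genes and 6 of transcripts: log2 fold changes and log2 mean CPM, a likelihood-ratio score, and p-values with FDR. The edgeR version, filter, normalization and annotation release are not stated in the labels or headers. The tables hold no values per library, so no count test, depth, SD or paired fit could be had, and the deposited FDR is the test throughout. Recomputed p-values and FDR differed from the deposited ones by at most 5e-06 and 0.00234. The number of genes tested was 15295 and 15356 for CR and TR against AL in iWAT, 12636 and 12691 in liver, and 14699 and 12593 for CR against TR in iWAT and liver.

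The approximate SE is the size of the log2 fold change divided by the square root of the likelihood-ratio score, and intervals are 95%. Differences between tissues and within isoform pairs were tested with 2-sided z tests on these SEs, adjusted after Benjamini-Hochberg (Python 3.11.15, scipy 1.17.1, pandas 2.3.3). Only the test between tissues was run on simulated data, with known SEs and uncorrelated tissues. That run could not check the approximate SE or the absence of correlation, and the pair test was not simulated. Gene lengths are means over a gene's transcripts in GENCODE M21, weighted by their deposited mean CPM. Genes with near-identical copies or pseudogenes, frequent in these families, are less certain. Members, roles, lists and pairs were chosen with earlier results of these data known. Genes were named if they belonged to an isoform pair, the c-ring, a call, or the highest or lowest values of a complex; of the lists, mainly those called. Ppargc1a, mt-Atp6, Cycs in liver and the marker genes were named beyond this. Alternatives were other thresholds (0.01 and 0.1), a log2 mean CPM minimum of 3, centring on the table or the length class, transcript tables, and assumed correlations. A second copy of Atp5o, Atp5s, Cox7b2 and Cox8c were not analysed here.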

Additional observations from a re-analysis of the deposited data

Results flagged for a closer look

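For some of these genes the effect of diet differed between tissues. Under CR, 11 of 42 members differed between iWAT and liver by an approximate z test of the difference itself, adjusted over all genes measured in both tissues, and all of them were higher in iWAT; of all genes, 3.09% passed in that direction and 3.65% in the other. Under TR, 21 of 42 members differed in the same test, again all towards iWAT, where 4.16% of all genes passed in that direction and 3.65% in the other. A correlation between tissues could not be measured from these tables.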

How the results depend on the processing

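No paired analysis was possible because the tables hold no values per library, and for the same reason no library could be left out and no count-based alternative was run. Centring on the median of the length class, chosen after the data were seen, gave 0 members higher in liver under CR and 2 under TR, with medians of 0.0818 and 0.0926, and 23 higher in iWAT under TR and 13 with a TR effect differing between tissues; the cause was not tested. It reversed 17 values, none of them called: under CR in liver Cox6a1 (-0.0771), Cox7c (-0.0771), Atp5d (-0.0284), Uqcr11 (-0.00406), Atp5e (-0.00256) and Atp5h (-0.00201); under TR in liver Atp5mpl (-0.153), Atp5md (-0.137), Cox8a (-0.134), Uqcrh (-0.116), Uqcrb (-0.0607), Cox5b (-0.0472), Atp5h (-0.0413), Atp5g3 (-0.0389), Cox6b1 (-0.00671) and Atp5k (-0.00667); and under TR in iWAT Cox4i2 (-0.237). At an adjusted p under 0.01, 1 member was higher in liver under CR and 0 under TR, 0 were lower in iWAT under TR, and 4 (CR) and 8 (TR) differed between tissues; at 0.1, 7 and 13 were higher in liver under CR and TR. In the transcript tables, 0 genes were higher in liver on either diet, 1 was lower in liver under TR and 0 lower in iWAT under TR. With genes under a log2 mean CPM of 3 left out, Cox6a2 was not tested, which left 0 lower in iWAT under TR. An assumed correlation between tissues of 0.3 gave 21 members under CR and one of -0.3 gave 5. A correlation of 0.5 within isoform pairs gave 4 differing pairs under CR and 4 under TR in iWAT and 3 between CR and TR in iWAT; -0.5 gave 1 under TR. The count of members higher in iWAT under CR, 31 as deposited, ran from 21 to 36 over these alternatives, and was 20 when only the highest transcript of each gene was counted. Of the values for single genes, 33 lost their call under length centring and 26 at 0.01. Depth per library is unknown here.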

Other observations

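The transcript tables covered 136 transcripts of the 46 genes in the comparison of CR with AL iWAT. At least 1 transcript was called higher for 23 genes under CR and for 33 genes under TR in iWAT in the authors' deposited tables, and for the highest transcript of each gene the counts were 20 and 32. Some genes were called through another transcript than their highest. Cox4i1-205, a minor transcript of Cox4i1, was at 1.82 under CR (FDR 0.00232) in the authors' deposited table, while the gene as a whole was not called under CR. Cox6b1-202 was at 1.43 under CR (FDR 0.000212) beside 1.07 for Cox6b1-201, the highest of the gene (FDR 0.0255), in the authors' deposited table. The largest called values belonged to transcripts near the floor. Cox7a2-203 was at 7.24 under CR in iWAT with a log2 mean CPM of -1.26, and Uqcrc1-205, the single call in liver, was at -9.34 under TR with a log2 mean CPM of 0.72, in the authors' deposited tables.

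Across all genes with a length, the relation of fold change to transcript length is described here with no test, because genes are not independent. Spearman's rho was -0.211 for CR and -0.328 for TR against AL in iWAT, -0.167 and -0.154 in liver, 0.373 between CR and TR in iWAT and 0.0215 between CR and TR in liver. Within the members it was 0.105, 0.0825, -0.132, -0.146, -0.0929 and -0.0356 in the same comparisons.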
